A study of Mus musculus with 6 samples.

Results

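The unfolded protein response and the integrated stress response were described here through 36 listed genes: endoplasmic reticulum (ER) chaperones, the sensors and targets of the ATF6, IRE1 and PERK arms, and targets of the transcription factor ATF4. The members were taken from a list of names, with no cut on their values but with earlier results of these data known, and all 36 were found among the 25184 genes of the count table. 35 of them were among the 15105 genes that passed the filter on low counts and were tested. The remaining member, Stc2, a secreted glycoprotein hormone, had 2 to 5 counts in each library and was not tested. The counts come from stranded paired-end sequencing of mRNA from cultured primary hepatocytes, with 3 libraries from Sucnr1 fl/fl mice and 3 from Hep-Sucnr1 KO mice. Both genotypes carried floxed alleles of Sucnr1, which codes for the succinate receptor SUCNR1, and were fed chow. In the Hep-Sucnr1 KO mice a Cre recombinase under the albumin promoter, which is active in hepatocytes, deletes the floxed gene, and the Sucnr1 fl/fl mice lacked this Cre. The hepatocytes came from the left lateral lobe, were enriched on a density gradient and were kept overnight on collagen-coated plates before RNA extraction. The age and sex of these mice are not given in the sources used here. RNA was extracted on 2 days, with 1 library of each genotype on day 1 (Sucnr1 fl/fl replicate 1 and Hep-Sucnr1 KO replicate 3) and 2 of each on day 2 (Sucnr1 fl/fl replicates 2 and 3, Hep-Sucnr1 KO replicates 4 and 5).

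Secretory cells such as hepatocytes fold large amounts of protein in the ER. When unfolded protein accumulates there, the membrane sensors IRE1, ATF6 and PERK signal to the nucleus, and chaperones, disulfide isomerases and degradation factors are made. PERK is also one of several kinases that phosphorylate the translation factor eIF2, which slows protein synthesis in general but favours translation of ATF4, and ATF4 in turn drives genes of amino acid supply, redox balance and, through CHOP, cell death. Much of this signalling acts on splicing, cleavage, phosphorylation and translation, which a count of reads per gene does not measure.

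The libraries held 30504248 to 38770694 counts, and levels are given as CPM, counts relative to the library total, adjusted between libraries by TMM. Sucnr1 itself stood at 6.71, 3.55 and 3.39 CPM in Sucnr1 fl/fl replicates 1, 2 and 3 and at 2.66, 0.827 and 0.152 CPM in Hep-Sucnr1 KO replicates 3, 4 and 5. The genotypes did not overlap, but Hep-Sucnr1 KO replicate 3, the day 1 library, lay closer to the lowest control than to the other KO libraries. The fitted log2 fold change of Sucnr1 was −2.23 ± 0.54 (SE), with an adjusted p of 0.998 in edgeR's quasi-likelihood test and of 0.0328 in DESeq2. Hepatocyte markers were abundant in all 6 libraries, with a summed level of 10 markers from 67203 to 97150 CPM. The 9 Kupffer cell markers summed to 34.2 to 123 CPM in Sucnr1 fl/fl and to 7.31 to 106 CPM in Hep-Sucnr1 KO, and the 8 markers of sinusoidal endothelium to 51.4 to 87.2 and 30.7 to 59.9 CPM. No marker of these 3 lists was at 0 in all libraries. In such bulk samples, fewer cells of a type and less RNA per cell cannot be told apart.

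Promoter windows from RefSeq (GRCm38.p6, 250 bases before to 50 after each start) were at hand for 34 of the 36 members, in 36 windows; Manf and Atf6 had none. In 34 of the 36 windows the last bases were found in a GENCODE transcript of the gene in the same orientation. Motifs were searched on both strands. The ER stress response element, to which ATF6 binds together with NF-Y (CCAAT, then any 9 bases, then CCACG), was found in 8 of the 36 member windows and in 0.119% of all 32851 windows. It stood before the RefSeq start of Hspa5, Hsp90b1, Dnajc3, Calr, Canx, Creld2, Pdia6 and Syvn1. The Hspa5 stretch lies within the GENCODE span of the gene, which begins further upstream. These stretches are shown because they include Hsp90b1, Calr and Creld2, chaperones that were higher in both day 2 KO libraries than in the other 4 without passing an adjusted p of 0.05, and Hspa5, which varied little. Dnajc3, Canx and Pdia6 had the same order of libraries, and Syvn1 did not. Sdf2l1, Dnajb11, Pdia3, Pdia4 and Sec61b had that order and a window without the element. The stretches read 5′ to 3′ on the strand of the gene with the element in capitals, in the orientation searched or, for Calr, Creld2 and the second element of Hsp90b1, as its reverse complement.
Hspa5 (chr2:34772020-34772048, plus strand): cttcaCCAATCGGAGGCCTCCACGacggg
Hsp90b1, first element (chr10:86705618-86705676, minus strand): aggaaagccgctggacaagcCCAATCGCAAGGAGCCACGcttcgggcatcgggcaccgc
Hsp90b1, second element (chr10:86705513-86705571, minus strand): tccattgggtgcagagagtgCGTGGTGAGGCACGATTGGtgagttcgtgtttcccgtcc
Calr (chr8:84847055-84847113, minus strand): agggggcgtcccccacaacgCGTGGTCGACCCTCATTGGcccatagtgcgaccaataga
Canx (chr11:50325780-50325838, minus strand): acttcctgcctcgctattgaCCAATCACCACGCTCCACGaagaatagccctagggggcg
Creld2 (chr15:88819500-88819558, plus strand): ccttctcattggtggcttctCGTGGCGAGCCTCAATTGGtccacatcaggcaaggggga
Dnajc3 (chr14:118937807-118937865, plus strand): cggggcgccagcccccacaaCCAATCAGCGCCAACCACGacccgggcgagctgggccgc
Pdia6 (chr12:17266471-17266529, plus strand): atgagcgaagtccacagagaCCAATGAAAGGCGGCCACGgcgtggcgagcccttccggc
Syvn1 (chr19:6046512-6046570, plus strand): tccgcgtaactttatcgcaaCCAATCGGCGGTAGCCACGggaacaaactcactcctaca

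The composite element of C/EBP and ATF factors, at which ATF4 binds with a C/EBP partner (TGATGNAA), was found in 6 member windows and in 3.97% of all windows. It stood before the RefSeq start of Herpud1, Nupr1, Chac1, Asns and Pck2 and after that of Trib3. For Nupr1 and Asns the stretch around it lies within the GENCODE span of the gene. The short element TGACGTGG or TGACGTGT, bound by XBP1 and ATF6, was in 1.14% of all windows and in 0 member windows, so no overlap with the other elements arose there. Stretches before the ATF4 targets Asns, Chac1 and Pck2 are shown, since these genes were among those that varied most between libraries. Psat1 and Phgdh, whose highest library exceeded the lowest by 5.26 and 6.28 times, varied more and had windows without the composite element. Of the other genes with the element, Nupr1 varied more than Asns (3.40 against 2.96 times). Herpud1 and Trib3 varied less than Asns (2.01 and 1.56 times). The element is in capitals, as searched for Asns and as its reverse complement for Chac1 and Pck2. A match is a description of the letters and not of a bound site.
Asns (chr6:7693214-7693243, minus strand): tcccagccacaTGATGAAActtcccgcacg
Chac1 (chr2:119351023-119351082, plus strand): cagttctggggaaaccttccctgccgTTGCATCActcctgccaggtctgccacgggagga
Pck2 (chr14:55540137-55540196, plus strand): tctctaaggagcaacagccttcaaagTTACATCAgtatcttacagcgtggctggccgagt

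Per kb of exon, the members spanned a wide range of mean levels. Hspa5, the gene of the ER chaperone BiP, was highest at 249 CPM per kb, followed by Xbp1 at 171, Calr at 164 and Hsp90b1 at 124. Among the transcription regulators, Atf5 (99.2 CPM per kb) and Atf4 (66.4) stood well above Ddit3, which codes for CHOP (8.03), and Nupr1 (1.45). Of the sensors, Ern1, which codes for IRE1, was at 47.1 CPM per kb, while Atf6 and Eif2ak3, which codes for PERK, were at 5.97 and 5.79 CPM per kb and did not differ beyond the spread between libraries. The enzymes of serine synthesis were lower, with Psat1 at 4.26 and Phgdh at 0.742 CPM per kb, and Stc2 was lowest at 0.0216.

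**Figure D1:**
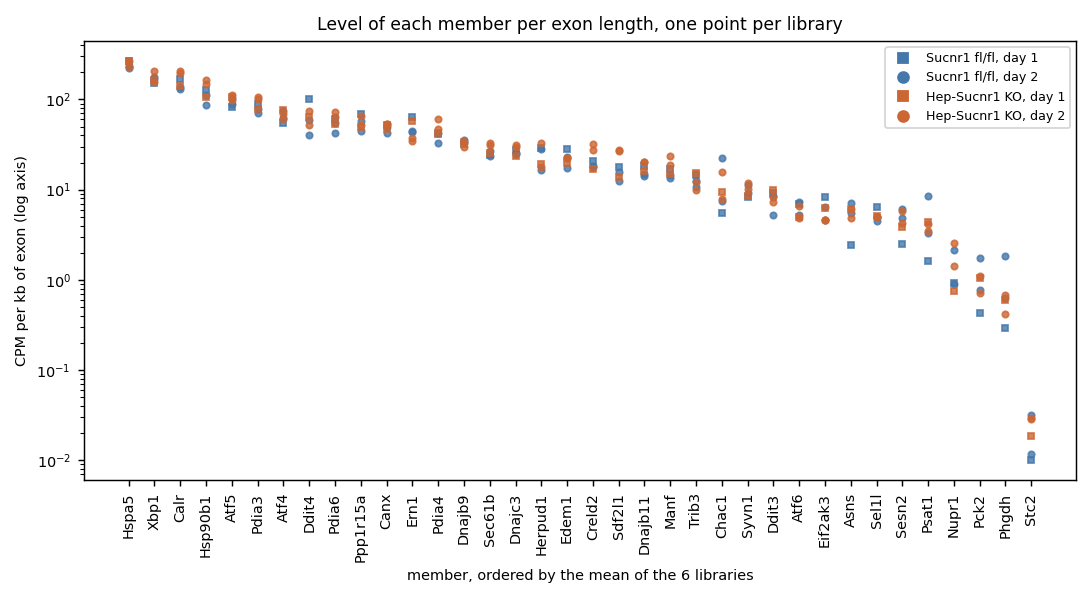
Level of each of the 36 members in CPM per kb of exon (log axis), with 1 point per library, coloured by genotype and shaped by extraction day, and the members ordered by their mean. Hspa5 leads at a mean of 249 CPM per kb and Stc2 is last at 0.0216, and the points of Psat1, Pck2 and Phgdh are spread more widely than those of the chaperones.

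The comparison of the genotypes asked whether loss of Sucnr1 from hepatocytes went with a different level of these stress genes. With extraction day in the model, no member passed an adjusted p of 0.05 in edgeR's quasi-likelihood test, as for 0.0% of all genes tested. At an unadjusted p below 0.05 the count was 0 of 35 members, against 3.73% of all genes. DESeq2 called 7 genes, 0.0463% of those tested, and no member. Its smallest unadjusted p among the members was 0.0257, for Ern1. The fitted log2 fold change was above 0 for 25 of the 35 members, or 71.4%, against 50.5% of all genes tested, and the median over the members was 0.09 against 0.003 over all genes. Under scaling to the library size alone and under DESeq2's size factors 22 of the 35 members were above 0. The values of the 3 KO libraries overlapped those of the 3 control libraries for all 35 members, while 10.6% of all genes had no overlap in either direction. With 1 library fewer, overlap is lost more readily in all genes. When Hep-Sucnr1 KO replicate 3 was left out, 13 of 35 members had no overlap, against 20.9% of all genes. Leaving out Sucnr1 fl/fl replicate 1, 2 or 3 gave 4 members each time, against 16.1%, 20.6% and 22.5% of all genes. Leaving out Hep-Sucnr1 KO replicate 4 or 5 gave 1 member, against 20.6% and 19.0%, and library size alone in place of TMM gave 2 members, against 9.02%. In two-sided exact permutation tests of 3 against 3 libraries, which cannot give less than 0.1, the p of the members lay between 0.2 and 1.

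**Figure D2:**
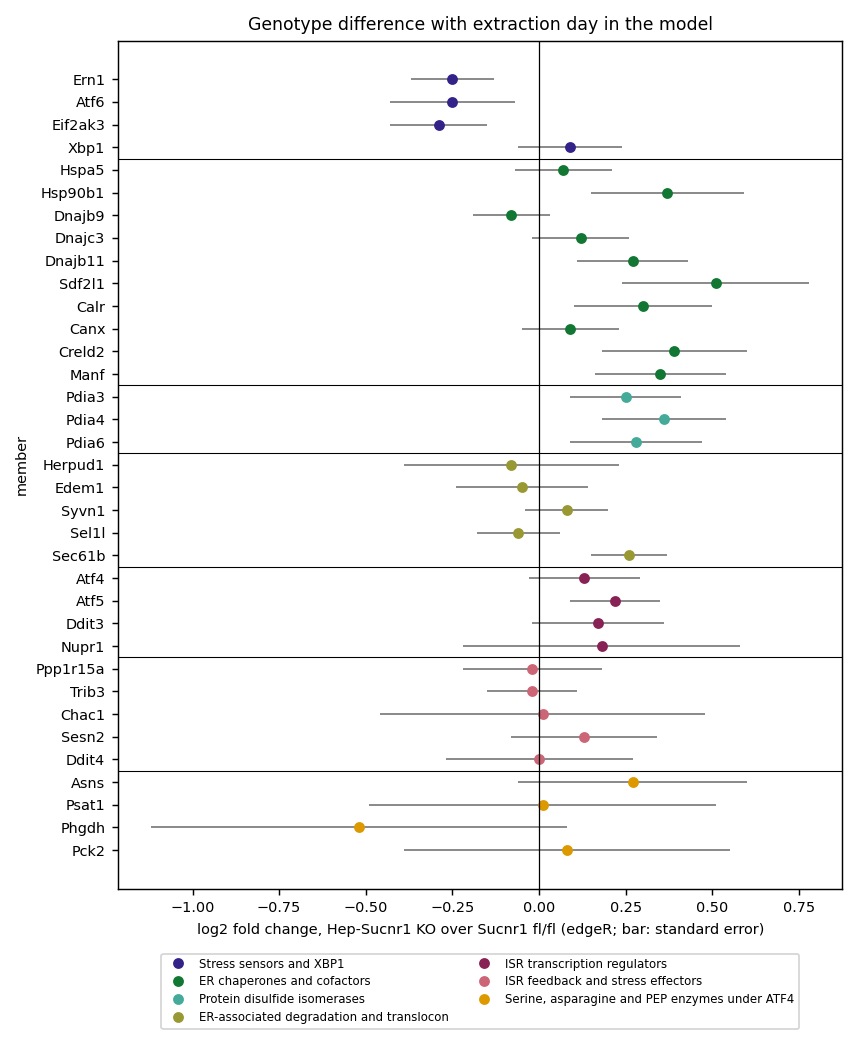
Log2 fold change of Hep-Sucnr1 KO over Sucnr1 fl/fl for the 35 tested members, with extraction day in the model; points are edgeR estimates, bars are standard errors, and colours and lines mark the 7 functional groups. The estimates of 9 of the 10 chaperones and all 3 disulfide isomerases lie above 0, those of 3 of the 4 genes of sensors and XBP1 below 0, and none passed the test.

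The 3 sensor genes were lower on average in Hep-Sucnr1 KO hepatocytes, and Xbp1 was not. Ern1 (chr11:106394650-106487852) codes for IRE1, the kinase and nuclease that splices Xbp1 mRNA. It stood at 523, 368 and 356 CPM in Sucnr1 fl/fl replicates 1, 2 and 3 and at 476, 283 and 303 CPM in Hep-Sucnr1 KO replicates 3, 4 and 5. The day 1 library was the highest of each genotype, and within either day the KO values lay below the control values. The log2 fold change was −0.25 ± 0.12 (SE) with an adjusted p of 0.998 (unadjusted p = 0.0800) in edgeR. Eif2ak3 (chr6:70844515-70905245), the gene of PERK, was at 49.7, 38.3 and 27.6 CPM in the controls and at 38.1, 27.9 and 27.6 CPM in the KO libraries. Its highest value was again in Sucnr1 fl/fl replicate 1, and the lowest control and the lowest KO library had the same value. Its log2 fold change was −0.29 ± 0.14 (adjusted p = 0.998). Atf6 (chr1:170704674-170867771), whose protein is cleaved to a transcription factor, had 64.8, 67.0 and 47.8 CPM in the controls and 45.5, 60.4 and 45.0 CPM in the KO libraries, so that the genotypes overlapped through 1 high KO and 1 low control library. The log2 fold change of Atf6 was −0.25 ± 0.18 (adjusted p = 0.998). Xbp1 (chr11:5520659-5525893), the substrate of IRE1, lay between 489 and 578 CPM in the controls and at 532, 679 and 510 CPM in the KO libraries. Hep-Sucnr1 KO replicate 4 alone stood above the rest, and the log2 fold change was 0.09 ± 0.15 (adjusted p = 0.998). Spliced and unspliced Xbp1 are not told apart in these counts.

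The ER chaperones and their cofactors were higher on average in Hep-Sucnr1 KO hepatocytes for 9 of 10 members, by a median log2 fold change of 0.29, but none passed the test. Hspa5 (chr2:34771970-34777547), the gene of BiP that holds the sensors inactive and binds unfolded chains, varied little and stood at 1138, 941 and 1000 CPM in Sucnr1 fl/fl and at 1137, 975 and 1121 CPM in Hep-Sucnr1 KO. The highest library exceeded the lowest by 1.21 times, and the log2 fold change was 0.07 ± 0.14 (adjusted p = 0.998). Sdf2l1 (chr16:17130138-17132383), a cofactor in the BiP chaperone cycle, was at 19.8, 13.7 and 17.3 CPM in the controls and at 15.3, 29.6 and 30.3 CPM in the KO libraries. The day 1 KO library lay within the controls and both day 2 KO libraries lay far above them. Its log2 fold change, the highest of the 35, was 0.51 ± 0.27 (adjusted p = 0.998, unadjusted p = 0.104).

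The same division between the KO libraries was seen in other chaperones, which are named here after their values were seen. Hsp90b1, the gene of the ER form of HSP90 (GRP94), was at 507, 346 and 448 CPM in the controls and at 431, 599 and 666 CPM in the KO libraries. Calr, the calcium-binding lectin chaperone calreticulin, was at 489, 377 and 395 CPM against 408, 568 and 590 CPM. In both genes the day 2 KO libraries were the highest of the 6 and the day 1 KO library lay within the controls. Creld2, an ER protein with isomerase activity, had 28.1, 24.7 and 24.5 CPM in the controls and 23.3, 37.6 and 43.5 CPM in the KO libraries. Manf, a secreted ER stress-inducible factor, had 59.0, 50.6 and 47.5 CPM and 52.2, 66.7 and 82.9 CPM. Dnajb11, a J-domain partner of BiP, had 58.7, 47.9 and 45.4 CPM and 51.8, 66.0 and 65.4 CPM. Again the 2 highest libraries of these 3 genes were the day 2 KO libraries. Their log2 fold changes over all 6 libraries were 0.39 ± 0.21 for Creld2, 0.35 ± 0.19 for Manf and 0.27 ± 0.16 for Dnajb11, and 0.37 ± 0.22 for Hsp90b1 and 0.30 ± 0.20 for Calr (adjusted p = 0.998 for each in edgeR). Dnajc3, an inhibitor of PERK and cofactor of BiP, and Canx, the membrane-bound lectin calnexin, followed with smaller fold changes (0.12 ± 0.14 and 0.09 ± 0.14). Dnajb9, a J-domain protein that restrains IRE1, was the only chaperone below 0 (−0.08 ± 0.11) and was lowest in Hep-Sucnr1 KO replicate 5. The median over the 10 genes was 0.54 without Sucnr1 fl/fl replicate 1 and 0.53 without Hep-Sucnr1 KO replicate 3. In GENCODE vM21, Manf shares exon sequence on its strand with Rbm15b, and Hsp90b1 with small annotated genes. If the authors' Ensembl annotation has the same overlaps, reads there may have been left uncounted. Calr has a pseudogene annotated in GENCODE vM21.

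**Figure D3:**
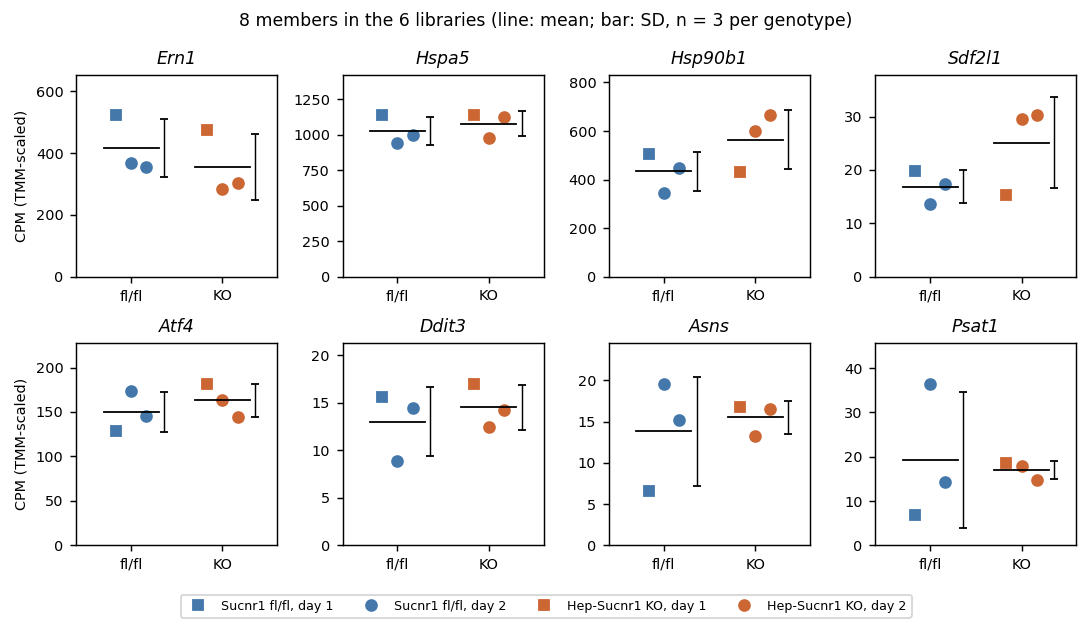
CPM of 8 members in the 6 libraries, by genotype (colour) and extraction day (squares for day 1, circles for day 2); lines are means and bars are SDs of 3 libraries. Hspa5 is nearly level at 941 to 1138 CPM, the day 2 KO libraries of Hsp90b1 and Sdf2l1 stand above all others, and Asns and Psat1 are lowest in Sucnr1 fl/fl replicate 1 and highest in replicate 2.

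The 3 protein disulfide isomerases, which form and rearrange disulfide bonds in the ER, had estimates of 0.25 to 0.36 on the log2 scale, all above 0. Pdia4 (chr6:47796141-47813430) had the smallest p of these and stood at 100, 79.3 and 101 CPM in Sucnr1 fl/fl and at 101, 114 and 147 CPM in Hep-Sucnr1 KO. Its log2 fold change was 0.36 ± 0.18 (adjusted p = 0.998, unadjusted p = 0.0846). Pdia3 (chr2:121413775-121438687), which acts with calnexin and calreticulin on glycoproteins, was at 277, 225 and 249 CPM and at 247, 315 and 338 CPM. Pdia3 had a log2 fold change of 0.25 ± 0.16 (adjusted p = 0.998). All 3 genes were lowest in Sucnr1 fl/fl replicate 2 and highest in Hep-Sucnr1 KO replicate 5. For Pdia6, a regulator of IRE1 signalling, these 2 libraries were at 160 and 273 CPM. The median over the 3 genes was 0.28, and leaving out 1 library gave 0.15 (without Sucnr1 fl/fl replicate 2) to 0.51 (without Sucnr1 fl/fl replicate 1).

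The genes of ER-associated degradation and of the translocon were divided, with 2 of 5 above 0 and a median log2 fold change of −0.05. Sec61b (chr4:47474658-47483242), a subunit of the channel through which new chains enter the ER, had the smallest p of all members. It was at 30.9, 30.1 and 34.5 CPM in the controls, at 32.7 CPM in the day 1 KO library and at up to 41.8 CPM in the day 2 KO libraries. The day 1 KO library again lay within the controls and the others above them, and the log2 fold change was 0.26 ± 0.11 (unadjusted p = 0.0615, adjusted p = 0.998). Edem1 (chr6:108828641-108859356), a lectin that sends misfolded glycoproteins to degradation, was at 184, 111 and 147 CPM in the controls and at 128, 146 and 146 CPM in the KO libraries, with a log2 fold change of −0.05 ± 0.19. Herpud1 (chr8:94386438-94395377), a scaffold of the degradation complex, was at 67.6, 66.5 and 38.4 CPM against 44.6, 77.2 and 41.4 CPM, with a log2 fold change of −0.08 ± 0.31. For Herpud1 each genotype had both low and high libraries, and for Edem1 the controls spanned the whole range (adjusted p = 0.998 for both in edgeR). Syvn1, the ubiquitin ligase HRD1, and Sel1l, its adaptor, had log2 fold changes of 0.08 ± 0.12 and −0.06 ± 0.12.

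All 4 transcription regulators of the integrated stress response had estimates above 0, between 0.13 and 0.22, with none past the test. Atf4 (chr15:80255184-80257541) was at 129, 174 and 146 CPM in Sucnr1 fl/fl and at 182, 164 and 144 CPM in Hep-Sucnr1 KO. Its log2 fold change was 0.13 ± 0.16 (adjusted p = 0.998), and its lowest and highest values were those of the day 1 libraries. Atf5 (chr7:44812256-44816658), a factor of the ATF4 family translated under stress, was at 166, 206 and 177 CPM and at 215, 224 and 199 CPM. Of the controls only replicate 2 reached the KO range, and the log2 fold change was 0.22 ± 0.13 (adjusted p = 0.998, unadjusted p = 0.132). Ddit3 (chr10:127290774-127296288), the gene of the death-promoting factor CHOP, was at 15.6, 8.87 and 14.4 CPM and at 17.0, 12.4 and 14.2 CPM. A single low control, replicate 2, set its range, and the log2 fold change was 0.17 ± 0.19 (adjusted p = 0.998). GENCODE vM21, which was not the annotation used for counting, holds a second gene of the name Ddit3 on the same exons. If the authors' Ensembl annotation holds it too, reads there may have been left uncounted. Nupr1 (chr7:126623249-126630861), a small stress-inducible chromatin protein, was at 2.31, 2.26 and 5.41 CPM and at 1.90, 3.54 and 6.46 CPM, or 60 to 213 counts. The highest library exceeded the lowest by 3.40 times, both of them KO libraries, and the log2 fold change was 0.18 ± 0.40 (adjusted p = 0.998).

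The feedback and effector genes showed no common direction, with a median log2 fold change of 0.00 and 3 of 5 tested members above 0. Ppp1r15a (chr7:45522916-45526268), which codes for GADD34, the phosphatase subunit that restores translation, was at 201, 132 and 170 CPM in the controls and at 145, 153 and 195 CPM in the KO libraries. The log2 fold change of Ppp1r15a was −0.02 ± 0.20 (adjusted p = 0.998). Sesn2 (chr4:132492032-132510501), a sestrin that curbs mTORC1 when leucine is short, was at 8.71, 21.0 and 16.8 CPM and at 13.4, 20.1 and 14.8 CPM, with a log2 fold change of 0.13 ± 0.21 (adjusted p = 0.998). Chac1 (chr2:119351229-119354381), an enzyme that degrades glutathione, was at 9.07, 36.8 and 12.3 CPM and at 15.5, 25.5 and 12.8 CPM, with a log2 fold change of 0.01 ± 0.47 (adjusted p = 0.999). Both were lowest in Sucnr1 fl/fl replicate 1 and highest in replicate 2, so that the controls enclosed the KO libraries. Ddit4, an mTORC1 inhibitor also known as REDD1, ran the other way, from 177 CPM in Sucnr1 fl/fl replicate 1 to 71.4 CPM in replicate 2, with the KO libraries at 90.5 to 130 CPM. Trib3, the pseudokinase that restrains ATF4 and AKT, lay between 20.9 and 32.5 CPM.

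The 4 enzymes of amino acid and phosphoenolpyruvate supply under ATF4 varied most between mice of the 7 groups, by a median of 4.69 times between the highest and the lowest library, against 1.71 times over all tested members. Psat1 (chr19:15904678-15947337), an aminotransferase of serine synthesis, was at 6.94, 36.5 and 14.2 CPM in Sucnr1 fl/fl and at 18.5, 17.9 and 14.7 CPM in Hep-Sucnr1 KO. The highest library exceeded the lowest by 5.26 times, and both were controls. Its log2 fold change was 0.01 ± 0.50 (adjusted p = 0.999). Phgdh (chr3:98313170-98339990), the first enzyme of that pathway, was at 0.728, 4.57 and 1.58 CPM and at 1.49, 1.03 and 1.67 CPM, or 28 to 152 counts, with a log2 fold change of −0.52 ± 0.60 (adjusted p = 0.998). Asns, asparagine synthetase, was at 6.63, 19.6 and 15.2 CPM and at 16.7, 13.2 and 16.5 CPM, and Pck2, the mitochondrial phosphoenolpyruvate carboxykinase, ranged from 3.35 to 13.8 CPM; these 2 genes are named after their values were seen. All 4 genes were lowest in Sucnr1 fl/fl replicate 1 and highest in Sucnr1 fl/fl replicate 2, with the 3 KO libraries in between. The median log2 fold change of 0.04 went to −0.56 without Sucnr1 fl/fl replicate 1, to −0.58 without Hep-Sucnr1 KO replicate 3 and to 0.60 without Sucnr1 fl/fl replicate 2.

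To compare the groups, each member's log2 CPM was centred on its average over the 6 libraries, and the median of the centred values in a library was taken as the level of the group there. The chaperones stood at 0.04, −0.21 and −0.17 in the 3 controls and at −0.17, 0.24 and 0.30 in the 3 KO libraries, in the order of the replicate numbers. The enzymes stood at −1.05, 1.08 and −0.08 in the controls and at 0.22, −0.19 and 0.17 in the KO libraries. In Sucnr1 fl/fl replicate 2 the enzymes were thus at their highest while the chaperones were at their lowest. The sensors and Xbp1 were highest in Sucnr1 fl/fl replicate 1 (0.37) and lowest in Hep-Sucnr1 KO replicate 5 (−0.29). Hep-Sucnr1 KO replicate 5 was the highest library for 11 of 35 members, against 17.5% of all genes, and Sucnr1 fl/fl replicate 2 for 8 of 35, against 18.7%. The first of these shares is 31.4% and the second 22.9%.

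**Figure D4:**
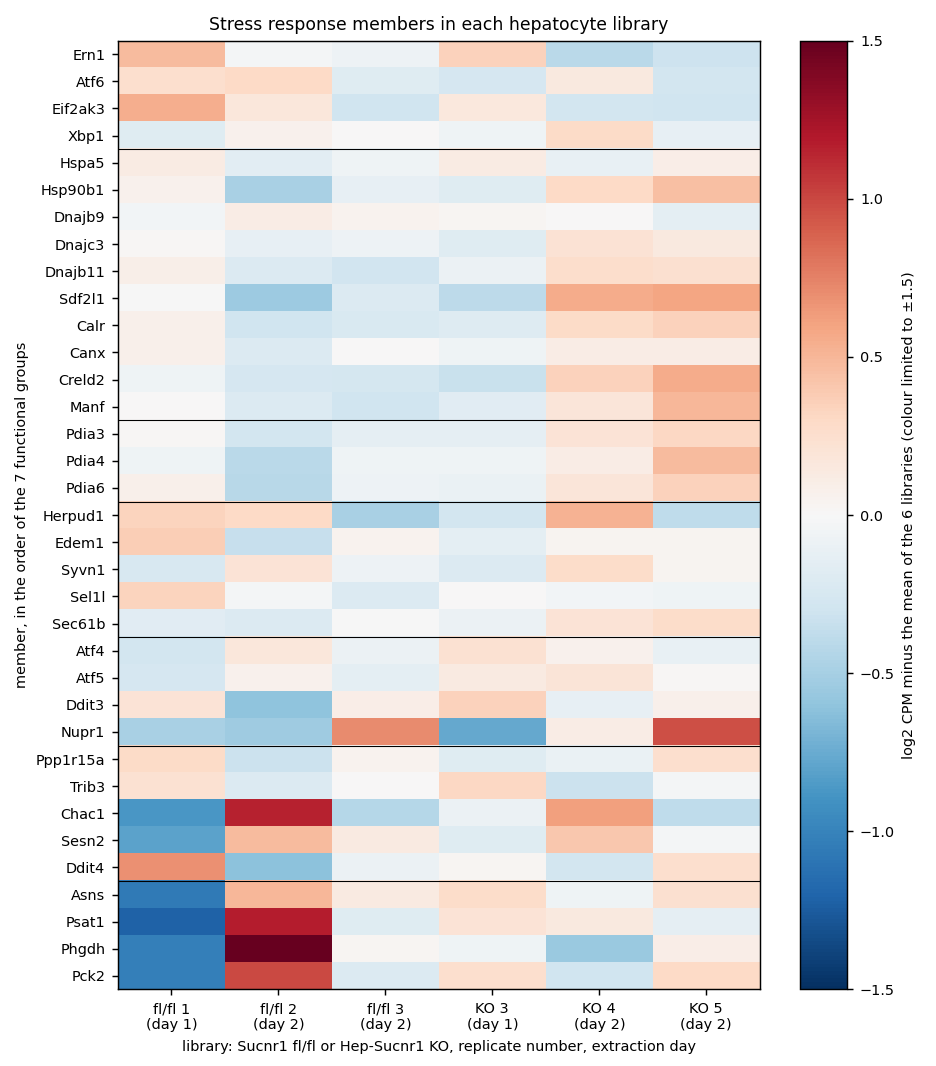
Centred log2 CPM (colour; 0 is each gene's average over the 6 libraries) for the 35 tested members, in the order of the 7 functional groups, with the libraries in columns. The chaperones and disulfide isomerases are mostly above the mean in Hep-Sucnr1 KO replicates 4 and 5, and the 4 enzymes run from below the mean in Sucnr1 fl/fl replicate 1 to above it in replicate 2.

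Each extraction day held both genotypes and could be read on its own. On day 1, where each genotype had 1 library and there was no replicate check, 9 of the 10 chaperones were lower or level in the KO library, with a median difference of −0.19 on the log2 CPM scale, and all 4 enzymes were higher, with a median of 1.30. On day 2, 9 of 10 chaperones and all 3 disulfide isomerases were higher in the KO libraries, with medians of 0.54 and 0.51, and all 4 enzymes were lower, with a median of −0.44. Both day 2 KO libraries lay above both day 2 controls for 12 of the 35 members, or 34.3%, against 15.0% of all genes. These 12 were 8 chaperones (Hsp90b1, Dnajc3, Dnajb11, Sdf2l1, Calr, Canx, Creld2 and Manf), the 3 disulfide isomerases and Sec61b. In the same 12 genes the day 2 KO libraries lay above the day 1 libraries as well, an order that 7.15% of all genes had and that was looked for after the values were seen.

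With the day 2 libraries alone in the edgeR fit, 9 of 35 members, or 25.7%, had an unadjusted p below 0.05, against 2.06% of all 15122 genes tested there, and none had an adjusted p below 0.05. The 9 were Hsp90b1, Dnajb11, Sdf2l1, Calr, Creld2, Manf, Pdia3, Pdia4 and Pdia6, all higher in Hep-Sucnr1 KO. Sdf2l1 was the most different, at a log2 fold change of 0.94 with an unadjusted p of 0.00135, followed by Creld2 at 0.71 with 0.00303. Leaving out either day 1 library, the control replicate 1 or the KO replicate 3, also gave 9 members, since the remaining day 1 library then carries no information on genotype. Hspa5 was not among them, with a log2 fold change of 0.10 on day 2.

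The difference between the days was tested as an interaction of genotype and day. No member passed an adjusted p of 0.05 in edgeR, as for 0.0% of all genes, and DESeq2 called 4 genes and no member. At an unadjusted p below 0.05 in edgeR there were 8 of 35 members, or 22.9%, against 3.69% of all genes. 6 of these were chaperones with a higher KO difference on day 2: Sdf2l1 (1.33 ± 0.29 on the log2 scale), Creld2 (0.99 ± 0.25), Hsp90b1 (0.91 ± 0.35), Calr (0.85 ± 0.29), Manf (0.79 ± 0.28) and Dnajb11 (0.68 ± 0.23). The other two were Asns (−1.57 ± 0.36) and Psat1 (−2.05 ± 0.75), whose KO difference was lower on day 2. With 1 of the day 2 libraries left out, interaction estimates were 1.17 to 1.51 (Sdf2l1), 0.88 to 1.09 (Creld2) and 0.74 to 1.11 (Hsp90b1). They were 0.81 to 0.88 (Calr), 0.62 to 0.93 (Manf) and 0.64 to 0.72 (Dnajb11). Asns and Psat1 were at −1.74 to −1.37 and at −2.58 to −1.22. Since day 1 held 1 library of each genotype, a difference between days and a difference between those 2 mice and the rest cannot be told apart.

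**Figure D5:**
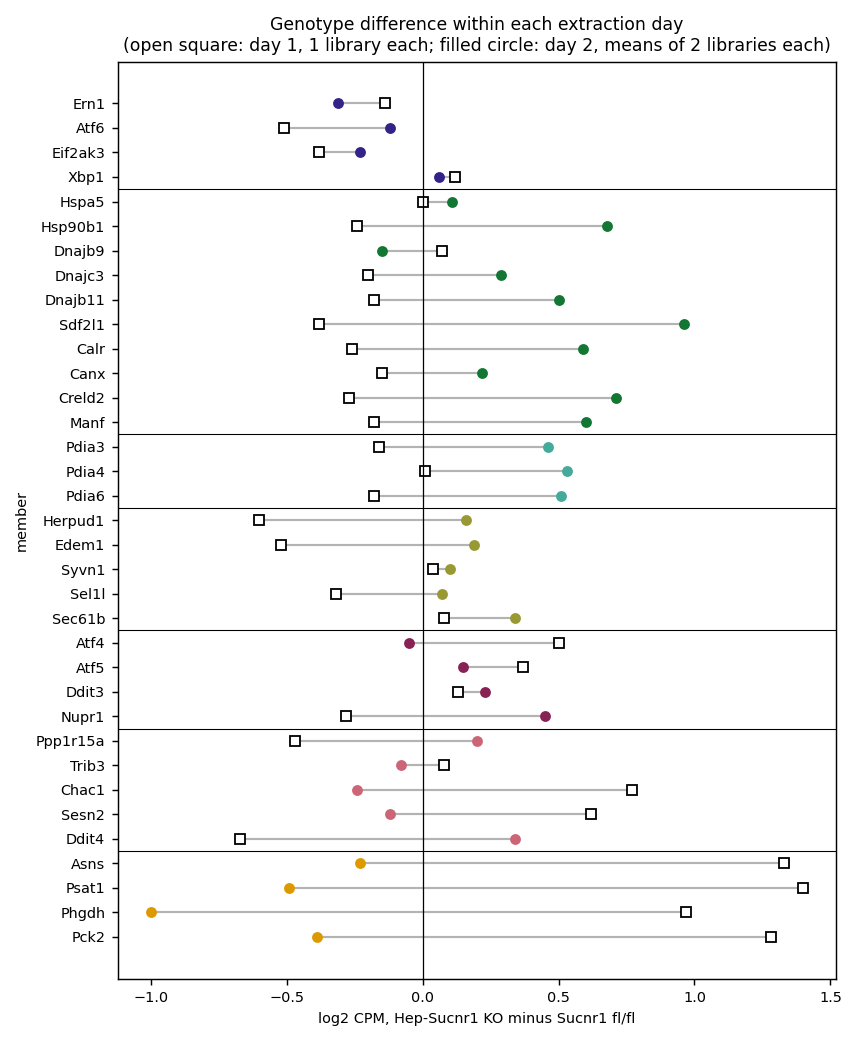
Log2 CPM of Hep-Sucnr1 KO minus that of Sucnr1 fl/fl within each extraction day, for the 35 tested members; open squares are day 1 (1 library of each genotype), filled circles are day 2 (means of 2 libraries of each genotype) and lines join the same gene. Most chaperones lie left of 0 on day 1 and right of 0 on day 2, and the 4 enzymes at the bottom do the opposite.

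The interaction was also read for Sucnr1 and for the cell type markers, where 3.69% of all genes had an unadjusted p below 0.05 in edgeR. Sucnr1 was at 2.66 CPM in the day 1 KO library and at 0.827 and 0.152 CPM in the day 2 KO libraries, and its own interaction had an estimate of −1.48 and an unadjusted p of 0.185 in edgeR. The Kupffer cell markers summed to 37.9 CPM in the control and 7.31 CPM in the KO library of day 1 and to 34.2 and 123 CPM in the controls and 106 and 75.5 CPM in the KO libraries of day 2, and all 9 had an interaction above 0, 4 with an unadjusted p below 0.05. The markers of sinusoidal endothelium were at 87.2 and 30.7 CPM on day 1 and at 47.9 to 59.9 CPM on day 2, with 8 of 8 above 0 and 5 with such a p. Of these Cdh5 had an adjusted p of 0.0452 in DESeq2. The 8 stellate cell markers summed to 3.60 to 21.5 CPM. The 5 of them that were tested were also all above 0, 1 of them with such a p. The Kupffer cell markers were highest in Sucnr1 fl/fl replicate 3 for 8 of 9 genes. Those of sinusoidal endothelium were highest in Sucnr1 fl/fl replicate 1 for 8 of 8. Both sums were lowest in the day 1 KO library, and neither separated the genotypes on day 2. The part of Sucnr1 and of these markers in the differences of the chaperones and enzymes was not tested.

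Extraction day itself, with genotype in the model, gave 5 of 35 members an unadjusted p below 0.05, or 14.3%, against 7.49% of all genes, and no gene passed an adjusted p of 0.05 in edgeR (0.0%). Ern1 and Eif2ak3 were lower on day 2, by log2 differences of −0.62 ± 0.13 (unadjusted p = 0.00187, adjusted p = 0.405) and −0.53 ± 0.15 (unadjusted p = 0.00974, adjusted p = 0.516). Trib3 was lower as well (−0.40 ± 0.13), and Sesn2 (0.73 ± 0.23) and Syvn1 (0.34 ± 0.13) were higher. DESeq2 called 1.49% of all genes for day, among them Ern1 with an adjusted p of 0.00026, and Ern1 was the only member it called. The Kupffer cell markers had a day estimate above 0 for 9 of 9 genes, 6 with an unadjusted p below 0.05 in edgeR. Their sum was lowest in the day 1 KO library (7.31 CPM). In the controls it was 37.9 CPM in replicate 1 of day 1 and 34.2 and 123 CPM in replicates 2 and 3 of day 2. The part of these markers in the day differences was not tested.

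Genes of the same pathways outside the 36 were read from lists fixed by name. For genotype, 50.5% of all genes tested were above 0, 3.73% had an unadjusted p below 0.05 and 18.7% were highest in Sucnr1 fl/fl replicate 2, and the counts below stand against these shares. Of 30 further genes of the ATF6 and IRE1 arms, 19 were above 0 for genotype, with a median log2 fold change of 0.02, and 2 higher and 1 lower gene had an unadjusted p below 0.05. Derl3, a degradation factor of the ER membrane, had the smallest p of this list. It was at 2.26, 3.04 and 2.21 CPM in Sucnr1 fl/fl and at 2.69, 6.02 and 4.40 CPM in Hep-Sucnr1 KO, with a log2 fold change of 0.75 ± 0.26 (unadjusted p = 0.0251). The day 1 KO library lay within the controls and both day 2 KO libraries above them. Of 15 eIF2 kinases, phosphatases and related factors 8 were above 0, with a median of 0.01, and Eif2ak4, the amino acid sensor GCN2, was lower at −0.30 ± 0.11 (unadjusted p = 0.0368). Eif2ak2 of this list, the kinase PKR that is activated by double-stranded RNA, named after its values were seen, was at 25.2, 44.7 and 46.2 CPM in the controls and at 19.4, 42.6 and 42.3 CPM in the KO libraries. Both day 1 libraries were lowest, with a day difference of 0.99 ± 0.12 on the log2 scale and an adjusted p of 0.192 in edgeR and of 3.48e-07 in DESeq2. Of 23 further ATF4 targets 13 were above 0, with a median of 0.01 and none at an unadjusted p below 0.05. The smallest p was that of Tubb2b, a beta-tubulin, at 0.34 ± 0.18. These ATF4 targets were highest in Sucnr1 fl/fl replicate 2 for 12 of 23 genes. Slc7a11, the cystine transporter subunit xCT, named after its values were seen, was at 11.1, 73.0 and 26.9 CPM in the controls and at 36.5, 55.7 and 33.5 CPM in the KO libraries. Of 12 aminoacyl-tRNA synthetases 11 were above 0, with a median of 0.09, and 8 were highest in Sucnr1 fl/fl replicate 2. The smallest p of these was that of Tars at 0.20 ± 0.11, and no gene of the 4 lists passed an adjusted p of 0.05 for genotype in edgeR or DESeq2. Genes of the cytosolic heat shock response, which handles unfolded protein outside the ER, were above 0 for 2 of 7, with a median of −0.08 and summed levels of 2081 to 2369 CPM. The inducible HSP70 genes of this list, named after their values were seen, were lower in each KO library than in each control. Hspa1a was at 88.1, 64.8 and 67.3 CPM in the controls and at 47.2, 63.3 and 57.9 CPM in the KO libraries, with a log2 fold change of −0.38 ± 0.17 (adjusted p = 0.998). Hspa1b was at 152, 111 and 112 CPM and at 84.7, 101 and 94.2 CPM, with a log2 fold change of −0.41 ± 0.16 (unadjusted p = 0.0355, adjusted p = 0.998). For both the KO library of day 1 was the lowest, and the interaction of genotype and day was 0.78 ± 0.24 (unadjusted p = 0.0180) for Hspa1a and 0.65 ± 0.25 (unadjusted p = 0.0390) for Hspa1b, with an adjusted p of 1 for each. These genes are near-identical copies, so the split of reads between them is uncertain, and their part in the differences of the ER chaperones was not tested. Immediate early genes, which respond to cell isolation, were above 0 for 1 of 8, with a median of −0.16.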

How the data were processed

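The authors trimmed stranded paired-end reads with Trim Galore 0.6.7, aligned them to GRCm38 with STAR 2.7.10a and counted read pairs per gene by strand with featureCounts and an Ensembl annotation, and deposited raw counts without normalization. How pairs that match several genes were counted is not given in the sources used here. Symbols, lengths and coordinates came from GENCODE vM21 (GRCm38), in which 25130 of the 25184 identifiers had a symbol. Libraries were grouped by the labels for genotype and extraction day. The labels also give a library index, 39 and 40 for Sucnr1 fl/fl replicates 1 and 2 and 85 for replicate 3. The KO libraries have 86 to 88, so the index series and genotype largely coincide. The 3 libraries of a genotype were taken as separate mice, after the labels and the study's methods.

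Genes with a mean DESeq2-normalized count above 5 were kept, after the study's filter. The counts were fitted with edgeR 4.0.16 (R 4.3.3; TMM, quasi-likelihood test, model of day and genotype, Benjamini-Hochberg adjustment over all genes, threshold 0.05), and the interaction in a model with its term. CPM are TMM-scaled, with a prior count of 2 on the log2 scale. The common biological coefficient of variation was 0.206. At 30504248 or more counts per library, counting error was small against it except for the lowest members. Of these tests, only the edgeR test for genotype was tried on simulated counts. Tables and figures were made with Python 3.11.15, pandas 2.3.3, SciPy 1.17.1 and matplotlib 3.10.9.

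The members and lists were chosen with earlier results of these data known. Values in full were given for genes that head an arm or were measured as protein by the study and, in each group, for the genes with the highest mean CPM, the smallest p for genotype and the largest range, and for the gene with the smallest p in each other list. Alternatives were DESeq2 1.42.0, its size factors, library size alone, no filter or edgeR's own filter, no day term, the day 2 libraries alone, the library index series as a term, a robust fit, an FDR of 0.1, a prior count of 0.5 and leaving out each library. Those for the interaction were added after the data were seen. Of the cell type lists, cholangiocyte markers summed to 350 to 650 CPM, mostly Spp1 and Sox9, and neutrophil markers to 0.791 to 5.96 CPM.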

Additional observations from a re-analysis of the deposited data

Results flagged for a closer look

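For 8 members the test of whether the genotype difference itself differed between the extraction days, the interaction term of the edgeR fit, gave an unadjusted p below 0.05, and the adjusted p was 1 for each. The log2 interaction in edgeR's fit across all genes, as the day 2 minus the day 1 difference of Hep-Sucnr1 KO and Sucnr1 fl/fl, was 1.33 for Sdf2l1 (unadjusted p = 0.00418), 0.99 for Creld2 (unadjusted p = 0.00808), 0.68 for Dnajb11 (unadjusted p = 0.0260), 0.85 for Calr (unadjusted p = 0.0272), 0.79 for Manf (unadjusted p = 0.0318) and 0.91 for Hsp90b1 (unadjusted p = 0.0425). It was −1.57 for Asns (unadjusted p = 0.00480) and −2.05 for Psat1 (unadjusted p = 0.0339). DESeq2 gave an adjusted p of 0.522 for Sdf2l1 and for Asns, and higher values for the other six. Day 1 held 1 library of each genotype.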

How the results depend on the processing

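Of the 300 refitted values of the 20 members given in full, 251 kept their sign and 49 did not, and 7 of the 20 members kept it throughout; 95 of 105 group medians moved by less than the spread between libraries. The cause was not tested for any of the values that follow. For genotype, DESeq2 called 7 genes, and members with an unadjusted p below 0.05 numbered 1 under DESeq2, 1 with no filter, 9 with the day 2 libraries alone and 0 to 9 when 1 library was left out. Of all genes, 2.06% had an unadjusted p below 0.05 with the day 2 libraries alone. That share was not taken for the other refits of genotype and day, so their member counts have no background. For day, genes called numbered 225 under DESeq2, 122 with no filter and 0 to 29 when 1 library was left out (29 without Sucnr1 fl/fl replicate 2), and members with such a p 8 with no filter and 4 to 10, with 10 when Hep-Sucnr1 KO replicate 3 was the one left out. For the interaction, genes called numbered 4 under DESeq2 and 0 to 1 when 1 library was left out. Members with no overlap numbered 2 under library size alone, against 9.02% of all genes, and 1 to 13 without 1 library, against 16.1% to 22.5% of all genes (20.9% at the count of 13).

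With the day 2 libraries alone, the median log2 fold change was 0.531 for chaperones and 0.163 for degradation genes, and single values were 0.163 (Herpud1), 0.172 (Edem1), −0.067 (Atf4), 0.196 (Ppp1r15a), −0.38 (Chac1), −0.127 (Sesn2) and −0.659 (Psat1). With the library index series as a term, medians were 0.069 (sensors), 0.197 (degradation) and 0.0 (transcription regulators). Single values were 0.118 (Atf6), 0.02 (Eif2ak3), 0.566 (Herpud1), −0.181 (Ddit3), −0.286 (Nupr1) and 0.212 (Phgdh). In that fit Sucnr1 fl/fl replicate 3 is the only control in the index series of the KO libraries, so the genotype estimate rests on that 1 control. Chac1 and Psat1, at 0.005 each, were at −0.012 and −0.007 under DESeq2, −0.019 and −0.018 with its size factors, −0.054 and −0.056 with library size alone, −0.021 and −0.019 with no filter, and −0.112 and −0.175 with no day term. Leaving out 1 library gave medians of 0.187 to 0.54 (chaperones), 0.149 to 0.506 (disulfide isomerases) and −0.107 to 0.176 (degradation), and single values of −0.03 to 0.203 (Xbp1), −0.452 to 0.176 (Herpud1), −0.233 to 0.178 (Edem1), −0.067 to 0.256 (Atf4), −0.012 to 0.383 (Ddit3), −0.182 to 0.528 (Nupr1), −0.189 to 0.202 (Ppp1r15a), −0.379 to 0.693 (Chac1), −0.126 to 0.315 (Sesn2), −0.658 to 0.693 (Psat1) and −1.206 to 0.278 (Phgdh).

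No paired analysis was possible because the genotypes share just 1 replicate number, and that number stands on different extraction days. Depth limits Stc2, at 2 to 5 counts in each library. Phgdh and Nupr1 were also low, at 28 to 152 and 60 to 213 counts. Their highest library exceeded the lowest by 6.28 and 3.40 times, so depth alone does not set their precision. For other members the spread between mice sets the precision. Scaling moved the median fold change of all genes by at most 0.031 on the log2 scale.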
